A study of Mus musculus with 6 samples.

Results

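Aminoacyl tRNA synthetases join each amino acid to its tRNA before translation. Of the 36 genes of the family described here, found by symbol in a table of 11489 genes, 20 encode the cytosolic enzymes and 16, with names ending in 2, the mitochondrial ones. RNA was sequenced from mouse bone marrow cells sorted for F4/80, a macrophage surface protein encoded by Adgre1, and for eGFP of an Epor reporter, Epor being the erythropoietin receptor gene. There were 3 libraries of F4/80+ Epor-eGFP+ cells and 3 of F4/80+ Epor-eGFP- cells. The reporter and the F4/80 gate were thus shared by both groups, and eGFP set them apart. The sources used here do not give strain, age, treatment, the number of animals or how the reporter was built. Both groups bear the label of erythroblastic island macrophages, which are cells that hold maturing erythroblasts around them. Nothing ties the libraries to separate animals, and a p-value here is a measure against the spread of these libraries alone, which may be technical.

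The cytosolic enzymes charge the tRNAs that read nuclear mRNAs, and several of them sit with the scaffold proteins encoded by Aimp1, Aimp2 and Eef1e1 in the multisynthetase complex. The mitochondrial enzymes are nuclear encoded, are imported, and charge the tRNAs that read the few mRNAs of the mitochondrial genome. Gars and Kars each encode both a cytosolic and a mitochondrial form, and Eprs charges both glutamate and proline. In amino acid shortage the kinase GCN2 (Eif2ak4) phosphorylates eIF2 alpha and raises translation of the transcription factor ATF4, which is known to induce many cytosolic synthetase genes. Wars, the tryptophan enzyme, is also known as an interferon-induced gene.

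Levels are in FPKM, that is, fragments over gene length and over the size of the library. They can be compared between genes, and the read depth behind them is unknown. Libraries are named by the numbers 0 to 2 of their columns, and values are listed in that order. Total FPKM ran from 467176 to 519650 over the libraries. Epor, the check of the sort, measured 0.375, 0.414 and 0.217 FPKM in the Epor-eGFP- libraries against 6.67, 3.43 and 7.78 in the Epor-eGFP+ ones. The log2 fold change of Epor was 2.33 (SE 0.25, limma adjusted p = 0.000842). Adgre1 lay between 117 and 241 FPKM in all 6 libraries and did not pass the test (adjusted p = 0.463). Summed over 15 macrophage genes, of which Adgre1 is 1, levels were 261 to 311 FPKM in Epor-eGFP- and 2174 to 7966 in Epor-eGFP+ libraries. Markers of late neutrophils summed to 24772 to 39040 FPKM in Epor-eGFP- and 13225 to 17194 in Epor-eGFP+ libraries. Granulocyte genes were thus abundant in both groups, beside those of the labelled cell type. In such bulk samples, fewer cells of a type and less RNA per cell cannot be told apart.

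Most synthetase genes rose in Epor-eGFP+ cells, in the cytosolic and the mitochondrial class, and none fell. Of 20 cytosolic genes 16 rose, and of 16 mitochondrial genes 9 rose, at a limma adjusted p below 0.05. Over all 10964 tested genes, 22.7% rose and 26.3% fell. The median log2 fold change was 0.44 for the cytosolic class, 0.41 for the mitochondrial class and -0.01 for all tested genes. The rises were small, with ratios of mean FPKM between 1.19 and 1.74 for the 16 cytosolic and between 1.36 and 2.08 for the 9 mitochondrial genes that passed. In 17 cytosolic and 10 mitochondrial genes every Epor-eGFP+ library was above every Epor-eGFP- library, as in 28.4% of all tested genes. In no member were all Epor-eGFP+ libraries below, against 31.9% of all tested genes. An exact two-sided permutation test gave p = 0.1 for each of these 27 genes, the smallest that 3 against 3 libraries allow. Of all called genes 46.3% were higher, and 59.5% after rescaling each library to a common total, which left 17 cytosolic and 10 mitochondrial members higher and 0 lower. All 36 genes passed the filter on low values. Ears2, which is among the 9 mitochondrial genes that rose, passed it only through its level in Epor-eGFP+ cells.

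**Figure D1:**
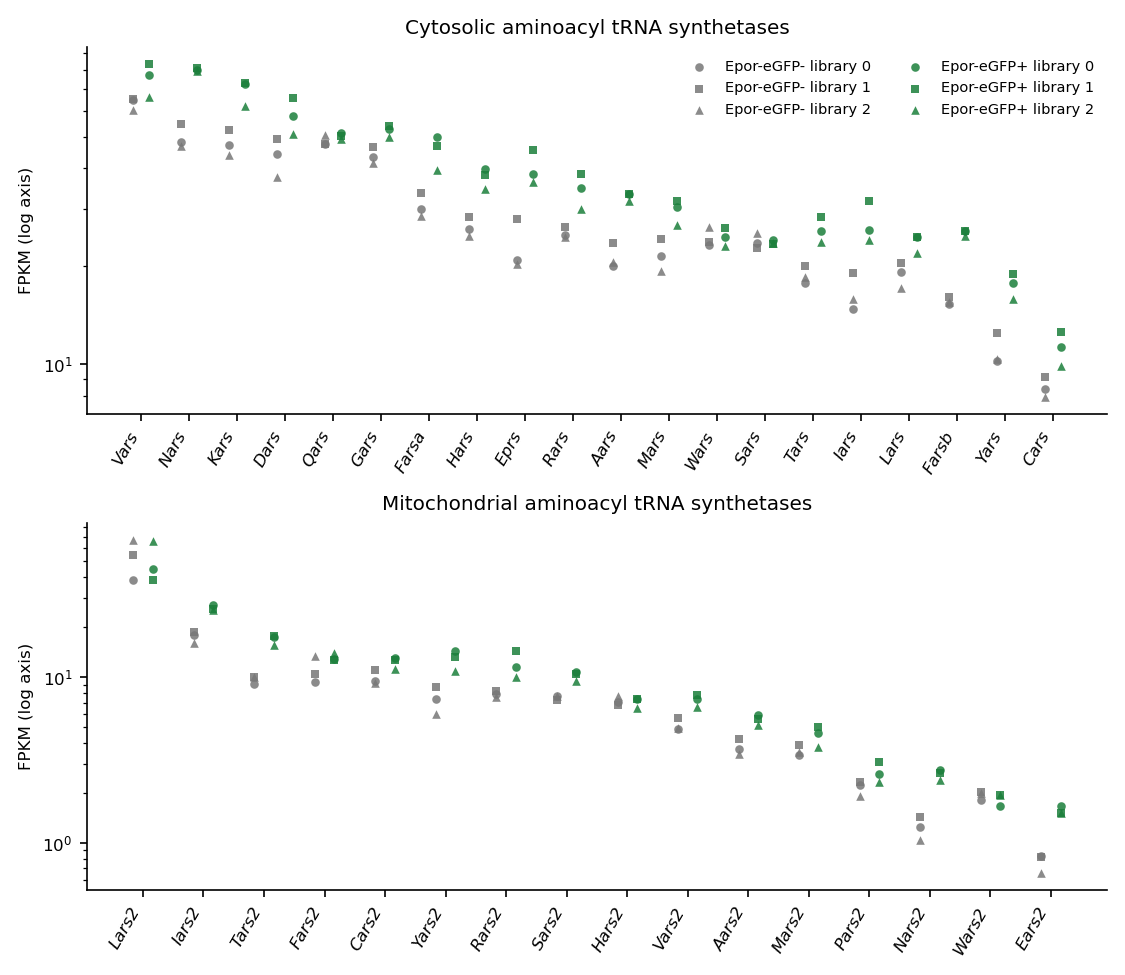
FPKM of each synthetase gene in each library on a log axis, cytosolic above and mitochondrial below, ordered by mean level, with grey for Epor-eGFP-, green for Epor-eGFP+ and a symbol for each library number. In 17 of 20 cytosolic and 10 of 16 mitochondrial genes all green points lie above all grey points.

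The promoters of the members were searched for motifs, from 250 bases before to 50 after the RefSeq start (build GRCm38.p6). RefSeq records were matched for 13 cytosolic and 14 mitochondrial genes, the first record of each gene being used. Cars, Hars, Lars, Nars, Rars, Vars, Wars, Hars2 and Pars2 were not matched. The composite element of ATF4 and C/EBP factors, searched as TGATGNAA on both strands, was found in 5 of the 13 cytosolic promoters (Aars, Gars, Iars, Tars and Yars) and in 0 of the 14 mitochondrial ones. It is in 2.23% of 8478 promoters of tested genes and in 4.06% of all 27025 promoters. The E-box bound by Myc, CACGTG, was found in 4 cytosolic promoters (Aars, Farsb, Iars and Tars) and 1 mitochondrial promoter (Ears2), against 10.6% of those of tested genes. The 10-base palindrome of NRF1, a factor of mitochondrial genes, was in 0 of the 27 promoters, and in 2.23% of those of tested genes. CCGGAAGT, a core for ETS factors, was in 3, those of Farsa, Mars and Rars2, against 9.18%. No match of a motif overlapped one of another motif. A match is only a match of letters in this window.

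The 5 cytosolic promoters with the composite element are shown, with that of Tars2, the mitochondrial gene of largest log2 fold change, which has no match. Capitals mark TGATGNAA or its complement TTNCATCA, and CACGTG. Sequences run 5′ to 3′ on the strand of the gene, from 150 bases before to 30 after the start. In GRCm38.p6 those of Aars (chr8:111033692-111033871), Iars (chr13:49681980-49682159), Yars (chr4:129189753-129189932) and Gars (chr6:55037851-55038030) are on the plus strand, and those of Tars (chr15:11399629-11399808) and Tars2 (chr3:95754948-95755127) on the minus strand. The start is counted as base 0. In Iars the composite element begins 7 bases after the start, in Yars 3 after, in Tars 15 before and in Gars 30 before. Aars holds it 112 bases before and again 9 after the start.
Aars: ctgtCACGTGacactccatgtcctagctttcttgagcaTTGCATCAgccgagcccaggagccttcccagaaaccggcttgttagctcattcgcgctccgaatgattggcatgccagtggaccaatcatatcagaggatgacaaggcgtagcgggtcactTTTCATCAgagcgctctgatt
Iars: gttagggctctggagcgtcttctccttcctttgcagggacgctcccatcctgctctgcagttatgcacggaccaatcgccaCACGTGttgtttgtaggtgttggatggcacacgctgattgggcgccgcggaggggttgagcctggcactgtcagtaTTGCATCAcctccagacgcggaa
Tars: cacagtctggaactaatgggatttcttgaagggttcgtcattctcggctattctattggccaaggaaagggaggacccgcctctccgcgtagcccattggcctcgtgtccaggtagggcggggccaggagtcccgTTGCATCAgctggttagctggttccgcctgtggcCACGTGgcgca
Yars: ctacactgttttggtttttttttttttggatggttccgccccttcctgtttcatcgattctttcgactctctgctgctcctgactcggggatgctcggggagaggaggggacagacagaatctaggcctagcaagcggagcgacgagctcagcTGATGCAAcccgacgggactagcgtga
Gars: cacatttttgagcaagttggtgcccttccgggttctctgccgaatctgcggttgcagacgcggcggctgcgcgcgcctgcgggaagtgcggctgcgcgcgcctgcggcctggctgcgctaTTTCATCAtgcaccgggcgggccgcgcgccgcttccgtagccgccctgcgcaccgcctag
Tars2: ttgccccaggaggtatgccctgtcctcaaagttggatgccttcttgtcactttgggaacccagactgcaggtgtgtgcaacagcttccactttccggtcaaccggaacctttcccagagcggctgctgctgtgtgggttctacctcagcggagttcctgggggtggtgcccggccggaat

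The 5 genes with the element had log2 fold changes of 0.25 to 0.68 (median 0.60), and the 8 other cytosolic genes with a promoter record of -0.01 to 0.78 (median 0.48). The ranges overlap: Gars, with the element, rose least of the called cytosolic genes, and Eprs, without it in this window, rose most. A link between the element and the fold changes was not tested.

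Eprs, the enzyme for glutamate and proline and a member of the multisynthetase complex, read 20.8, 28.0 and 20.3 FPKM in the Epor-eGFP- libraries against 38.3, 45.4 and 36.3 in the Epor-eGFP+ ones. Here and below, parentheses give the log2 fold change, its SE and the limma adjusted p. The lowest Epor-eGFP+ library of Eprs lay above its highest Epor-eGFP- library (log2 fold change 0.78, SE 0.14, limma adjusted p = 0.00488). Iars, the isoleucine enzyme of the same complex, was at 14.8, 19.0 and 15.9 FPKM against 25.8, 31.8 and 24.0 in Epor-eGFP+ libraries (0.68, SE 0.13, adjusted p = 0.00600). In both genes library 1 was the highest of each group. Nars, the asparagine enzyme, rose from 48.0, 54.5 and 46.9 to 79.9, 81.2 and 79.3 FPKM, with hardly any spread in Epor-eGFP+ (0.68, SE 0.08, adjusted p = 0.000957). Farsb, the beta subunit of the phenylalanine enzyme, varied little within groups, at 15.3, 16.0 and 15.5 FPKM against 25.6, 25.7 and 24.7 (0.67, SE 0.06, adjusted p = 0.000604). The alpha subunit gene Farsa rose as well, by 0.55 (SE 0.11, adjusted p = 0.00602). Yars, the tyrosine enzyme, rose from 10.3, 12.4 and 10.4 to 17.8, 18.9 and 15.9 FPKM (0.62, SE 0.10, adjusted p = 0.00327). Aars, the alanine enzyme, rose from 20.0, 23.6 and 20.7 to 33.4, 33.4 and 31.7 FPKM (0.60, SE 0.08, adjusted p = 0.00165). For each of these genes the groups did not overlap.

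The highest levels of all members were those of Vars, Nars and Kars, the enzymes for valine, asparagine and lysine. Kars was at 47.1, 52.6 and 43.8 FPKM against 72.7, 73.2 and 62.3 in Epor-eGFP+ libraries (log2 fold change 0.53, SE 0.10, limma adjusted p = 0.00529). Vars was at 64.7, 65.4 and 60.3 FPKM against 77.5, 83.7 and 66.3, with groups that did not overlap, and missed the threshold (0.25, SE 0.10, adjusted p = 0.0734). Vars passed in a fit that took the number of the library as a replicate block (adjusted p = 0.0243). Hars, the histidine enzyme, Tars (threonine), Mars (methionine), Rars (arginine), Dars (aspartate), Cars (cysteine), Lars (leucine) and Gars (glycine) rose by 0.25 to 0.49 on the log2 scale. Of these, Cars, Dars, Gars and Lars lost their call without Epor-eGFP+ library 0 or 1 or without Epor-eGFP- library 0 or 2, with an adjusted p up to 0.0996. Mars lost it without Epor-eGFP+ library 0 (adjusted p = 0.0548). No direction changed in these 5 genes.

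Sars, Wars and Qars had the lowest log2 fold changes of the cytosolic genes and were singled out after their values were seen. Sars, the serine enzyme, was at 23.5, 22.8 and 25.3 FPKM in Epor-eGFP- and at 24.0, 23.4 and 23.6 in Epor-eGFP+ libraries (log2 fold change -0.01, SE 0.07, adjusted p = 0.914). Wars was at 23.2, 23.7 and 26.4 FPKM against 24.6, 26.3 and 23.0 (0.01, SE 0.08, adjusted p = 0.918). Qars, the glutamine enzyme of the multisynthetase complex, was at 47.6, 47.6 and 50.5 FPKM against 51.2, 50.3 and 49.2 (0.05, SE 0.06, adjusted p = 0.547). The groups overlapped in all 3 genes. Each was tested against no change and not against the other members, and a p above the threshold does not show equal levels. Of 18 interferon response genes 12 fell and 0 rose, against 26.3% and 22.7% of all tested genes. Among those that fell were Mx1 (-1.50, SE 0.22), Oasl2 (-1.46, SE 0.23), Ifit1 (-1.05, SE 0.20) and Irf9 (-0.87, SE 0.18). A link between these genes and the level of Wars was not tested.

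**Figure D2:**
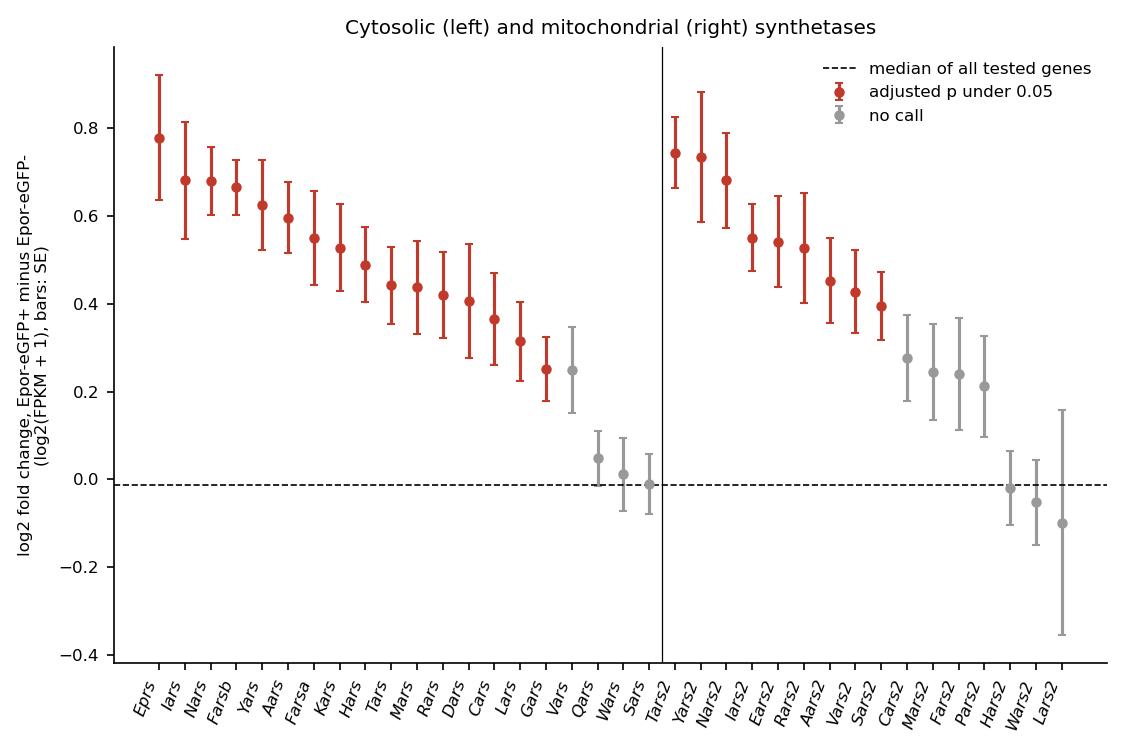
Log2 fold change of each gene, Epor-eGFP+ minus Epor-eGFP- on the log2(FPKM + 1) scale, with its SE, cytosolic genes on the left and mitochondrial on the right, in red where the adjusted p was under 0.05 and grey otherwise. The dashed line is the median of all tested genes, and all 25 red points lie above it.

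Split by structure, 7 of 8 complex members rose (median log2 fold change 0.43, Qars without a call), and so did 9 of 12 enzymes outside the complex (0.47). Of the cytosolic class I enzymes 7 of 10 rose (0.39) and of class II 9 of 10 (0.51). Class I and II are the folds of the catalytic domain, and Eprs, which charges both glutamate and proline, was counted in class I only. Of 11 synthetases known to be induced in the integrated stress response 9 rose (0.44), and of the 9 others 7 rose (0.42). The differences between these subsets were not tested.

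Of the mitochondrial enzymes, Tars2 (threonine) had the largest log2 fold change. Tars2 was at 9.13, 9.96 and 10.0 FPKM in Epor-eGFP- and at 17.5, 17.8 and 15.6 in Epor-eGFP+ libraries (0.74, SE 0.08, limma adjusted p = 0.000868). Yars2 (tyrosine) rose from 7.39, 8.65 and 5.95 to 14.3, 13.2 and 10.9 FPKM, with library 2 lowest in both groups (0.73, SE 0.15, adjusted p = 0.00689). Nars2 (asparagine) rose from 1.25, 1.43 and 1.04 to 2.75, 2.64 and 2.38 FPKM (0.68, SE 0.11, adjusted p = 0.00293). Iars2 (isoleucine) rose from 17.9, 18.6 and 16.1 to 27.1, 25.9 and 25.4 FPKM (0.55, SE 0.08, adjusted p = 0.00182). In these 4 genes the groups did not overlap. By the ratio of mean FPKM the largest rises of all members were those of the weakly expressed Nars2 (2.08) and Ears2 (2.05), the glutamate enzyme at 0.768 ± 0.0982 against 1.57 ± 0.0902 FPKM (SD, n = 3). On the log2 scale with a pseudocount of 0.1 these were 1.01 and 0.95, and with a pseudocount of 5 they were 0.28 and 0.19. Rars2, Aars2, Vars2 and Sars2 rose by 0.39 to 0.53 on the log2 scale.

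Of the 7 mitochondrial genes without a call, Cars2 (cysteine) had groups that did not overlap, at 9.27 to 11.07 against 11.11 to 13.1 FPKM, and passed with the replicate block (adjusted p = 0.0513 without and 0.0281 with it). Mars2, Fars2 and Pars2 had log2 fold changes of 0.21 to 0.24 and overlapping groups. Hars2, the mitochondrial histidine enzyme, was at 7.08, 6.75 and 7.67 FPKM against 7.32, 7.32 and 6.53 (-0.02, SE 0.08, limma adjusted p = 0.868). Wars2, for tryptophan, was at 1.82, 2.04 and 2.00 FPKM against 1.68, 1.93 and 1.94 (-0.05, SE 0.10, adjusted p = 0.675). Hars2 and Wars2 were singled out after their values were seen, and in each the groups overlapped.

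Lars2, the mitochondrial leucine enzyme, was singled out in the same way, for its level and spread. It was at 38.3, 54.6 and 67.6 FPKM in the Epor-eGFP- libraries and at 45.1, 38.3 and 66.5 in Epor-eGFP+ libraries (log2 fold change -0.10, SE 0.26, limma adjusted p = 0.772). Its SD was 27.4% and 29.5% of the mean in the groups, the largest of all members, while the median mitochondrial gene was at 9.31% and 7.72%. Its level made up 28.96%, 35.0% and 41.5% of the summed mitochondrial FPKM in Epor-eGFP- libraries and 24.3%, 21.3% and 34.5% in Epor-eGFP+ libraries. Within each group the libraries stood in the same order as for Rn45s, the 45S precursor of ribosomal RNA, which was at 132, 166 and 178 FPKM against 304, 189.6 and 501. Of all tested genes 3.94% had that order in both groups, as did 1 other member, Fars2, at 9.39, 10.4 and 13.4 against 12.8, 12.6 and 13.9 FPKM. Rn45s rose in Epor-eGFP+ (0.96, SE 0.33, adjusted p = 0.0472). Of 3845 stretches of 50 bases in the longest coding Lars2 transcript, 3 occur in a transcript of another gene, Gm15564, in the GENCODE M21 transcripts. Only this transcript, of 3894 bases, was searched, while all annotated Lars2 exons cover 11089 bases. Whether reads of another RNA were counted for Lars2 was not tested.

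**Figure D3:**
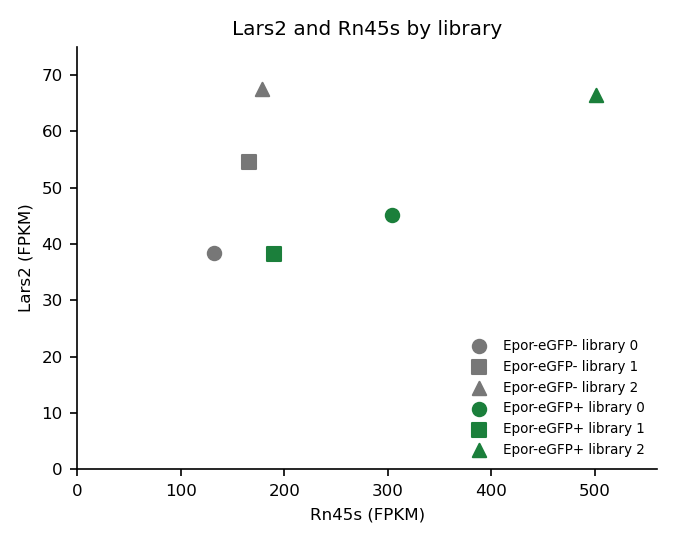
FPKM of Lars2 against FPKM of Rn45s in the 6 libraries, grey for Epor-eGFP- and green for Epor-eGFP+, with a symbol for each library number. Library 2 of each group is highest for both genes, and the groups overlap for Lars2.

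Summed over the class, the cytosolic genes were at 571, 623 and 556 FPKM in Epor-eGFP- and at 798, 833 and 723 FPKM in Epor-eGFP+ libraries. The mitochondrial sum was 132, 156 and 163 FPKM against 186, 179.9 and 193. Without Lars2 it was 94.0, 101 and 95.2 FPKM against 141, 142 and 127. The ratio of group means was 1.35 for the cytosolic sum, 1.24 for the mitochondrial sum and 1.41 for that sum without Lars2. In each of the 3 sums every Epor-eGFP+ library was above every Epor-eGFP- library. The cytosolic sum was 6.07, 6.15 and 5.84 times the mitochondrial sum without Lars2 in Epor-eGFP- libraries and 5.66, 5.88 and 5.72 times in Epor-eGFP+ libraries. These ratios overlap between groups.

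**Figure D4:**
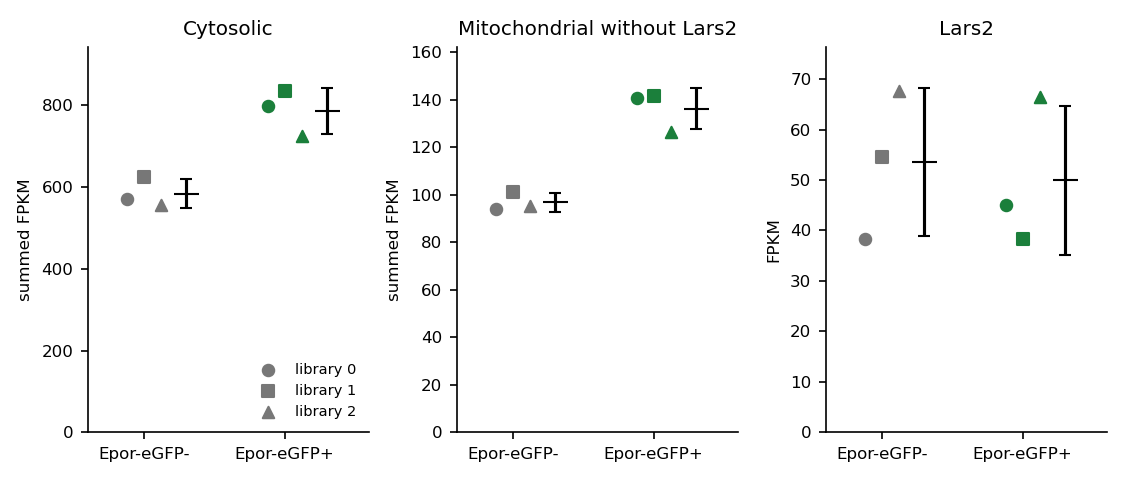
Summed FPKM of the cytosolic genes, of the mitochondrial genes without Lars2, and FPKM of Lars2, by group, with a symbol for each library number and the mean with SD in black. The sums of both classes do not overlap between groups, with means of 583 against 785 and 96.8 against 136 FPKM, while Lars2 overlaps.

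For 13 amino acids a cytosolic and a mitochondrial gene carry matching names. In 6 of these pairs, for alanine, isoleucine, asparagine, arginine, threonine and tyrosine, both genes rose. In 4 pairs, those of cysteine, histidine, leucine and methionine, the cytosolic gene alone passed, and in 2, those of serine and valine, the mitochondrial gene alone passed. Sars2 rose from 7.67, 7.22 and 7.64 to 10.7, 10.4 and 9.44 FPKM (log2 fold change 0.39, limma adjusted p = 0.00619) beside a Sars log2 fold change of -0.01. In the tryptophan pair neither passed. Differences within pairs were not tested. The cytosolic partner was the more abundant in both groups in 10 of the 13 pairs, by 40.1 times for Nars over Nars2 and 1.93 times for Tars over Tars2 in Epor-eGFP- cells. Cars was below Cars2 in both groups, at 0.852 and 0.918 times its level, and Lars below Lars2 at 0.354 and 0.475 times, while Iars stood at 0.945 and 1.04 times Iars2.

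Libraries moved alike within groups. In Epor-eGFP+, library 2 was lowest for 19 of 20 cytosolic and 12 of 16 mitochondrial genes, against 46.1% of all tested genes. In Epor-eGFP-, library 1 was highest for 17 cytosolic and 10 mitochondrial genes, against 33.6% of all tested genes. Without both libraries numbered 2, 17 cytosolic and 10 mitochondrial genes were higher and 0 lower. Markers of several other cell types moved with the groups. The 5 promyelocyte markers (Mpo, Elane, Prtn3, Ctsg and Ms4a3) all rose, and their sum was 1576, 2818 and 1513 FPKM in Epor-eGFP- against 8280, 9784 and 7868 in Epor-eGFP+ libraries. In each group library 1 had the highest and library 2 the lowest such sum, as it was for the cytosolic synthetases. The sums of proliferation, megakaryocyte, T and NK, other charging, and Myc family and target genes had that order too. Most of the T and NK sum was Nkg7, at 229, 254 and 199 FPKM in the Epor-eGFP+ libraries. Among others, the sums of mitochondrial synthetases, complex scaffolds, mitochondrial translation factors and erythroid markers did not have that order. How many of all genes had it was not counted. Of 19 erythroid markers 16 rose and 1 fell, and the sum of the 19 was 250 to 273 FPKM against 514 to 724. Macrophage markers, of which 14 of 15 rose, were highest in Epor-eGFP+ library 2, where the cytosolic synthetase sum was lowest.

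Proliferation genes summed to 1252, 1515 and 1115 FPKM against 1582, 1773 and 1331. Of these genes 5 of 20 were higher and 0 lower, against 22.7% and 26.3% of all tested genes. Of other marker lists, 11 of 12 late neutrophil, 8 of 10 monocyte and 5 of 10 eosinophil genes fell, the last beside 2 that rose. Eosinophil markers summed to 15131 to 24802 FPKM against 8644 to 16353, with Prg2 listed at 0 in a library, and monocyte markers to 4465 to 6111 against 2476 to 2849. Higher and lower were 4 and 0 of 10 B lineage, 1 and 4 of 6 T and NK, 2 and 1 of 6 dendritic cell, 2 and 0 of 7 megakaryocyte, 3 and 0 of 4 stroma and endothelium, and 3 and 1 of 5 osteoclast genes tested. Several of these counts, such as those of dendritic cell and megakaryocyte genes, lie near the shares of all tested genes, 22.7% higher and 26.3% lower. The osteoclast gene Dcstamp was listed at 0 in at least 1 library. The part of any of these cell types in the synthetase result was not tested.

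Of other genes of tRNA charging some rose and none fell. Beside the counts here and below, 22.7% of all tested genes rose and 26.3% fell. Of the 3 scaffold genes of the multisynthetase complex, Eef1e1 rose from 10.3 ± 0.907 to 17.8 ± 2.47 FPKM (SD, n = 3; log2 fold change 0.74, limma adjusted p = 0.00294) and Aimp2 from 14.0 ± 2.68 to 23.4 ± 2.82 FPKM (0.71, adjusted p = 0.00681). Aimp1, the other scaffold, was at 42.5 ± 5.61 against 40.0 ± 1.69 FPKM (-0.08, adjusted p = 0.550). Of 14 further charging genes 6 rose and 0 fell (median 0.27). Dtd1, which removes D-amino acids from tRNA, rose by 0.85 (SE 0.13), the tRNA exporter gene Xpot by 0.82 (SE 0.16) and Aarsd1, which edits mischarged alanine tRNA, by 0.67 (SE 0.12). Mitochondria make glutamine tRNA by amidation with the products of Gatb, Gatc and Qrsl1, of which Gatb rose (0.63, adjusted p = 0.00263), while Gatc (-0.03) and Qrsl1 (-0.04) did not pass.

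Of 12 mitochondrial translation factors 9 rose and 0 fell (median 0.44), led by C1qbp (1.26, SE 0.12), the elongation factor gene Tsfm (0.69, SE 0.09), the ribosome recycling factor gene Mrrf (0.63, SE 0.08) and Lrpprc (0.62, SE 0.08), which stabilises mitochondrial mRNAs. Mtif2, an initiation factor, passed with the replicate block alone (0.26, limma adjusted p = 0.0463 with the block and 0.0548 without). Of 12 genes of mitochondrial tRNA maturation 4 rose and 0 fell (median 0.15), among them Pus1, a pseudouridine synthase (0.70, SE 0.08). In the cytosol 4 of 7 elongation factor genes rose (median 0.27), with Eef1g at 0.69, and 18 of 38 initiation factor genes rose and 4 fell (median 0.18).

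The integrated stress response, which induces many synthetases, did not move one way. Of 21 tested genes 9 rose and 4 fell (median log2 fold change 0.09). Atf4 mRNA was at 106 ± 1.76 against 96.2 ± 12.2 FPKM (SD, n = 3), with all Epor-eGFP+ libraries lowest and no call (-0.14, SE 0.10, limma adjusted p = 0.282) and Ddit3, which encodes CHOP, at 11.4 FPKM in both groups (0.01, adjusted p = 0.974). The amino acid synthesis genes Aldh18a1 (1.20), Asns (1.08), Phgdh (0.99), Shmt2 (0.96), Psat1 (0.53) and Psph (0.50) rose. Slc7a5 and Slc3a2, the chains of a transporter of large neutral amino acids, rose by 1.18 and 1.17. Nupr1 (-1.61), Cebpb (-1.39), Cebpg (-0.55) and Mthfd2 (-0.51) fell, all of them known targets or partners of ATF4. The other gene that rose was Atf5 (0.47). Atf3 (-0.71) and Slc7a1 (0.31) passed with the replicate block alone (limma adjusted p = 0.00821 and 0.0130). These genes of synthesis and transport outside the naming rule were named after their values were seen. Of the eIF2 alpha kinases, Eif2ak4 rose (0.26, adjusted p = 0.0332), Eif2ak3, the kinase PERK, fell (-0.53, adjusted p = 0.00228), Eif2ak1 fell (-0.25, adjusted p = 0.0215) and Eif2ak2 was at -0.21 (adjusted p = 0.246, and 0.0491 with the replicate block). ATF4 is controlled in large part at translation, which FPKM do not measure.

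Of 16 amino acid transporter genes 5 rose and 2 fell (median 0.26), against 22.7% and 26.3% of all tested genes. Slc43a1 (1.73, SE 0.26) and Slc7a8 (1.66, SE 0.40) were at the top, and Slc7a7 passed with the replicate block alone (0.85, limma adjusted p = 0.0130). Of 17 genes of the Myc family and its targets 12 rose and 3 fell (median 0.84). Myc rose from 20.9 ± 6.01 to 41.6 ± 6.71 FPKM (SD, n = 3; 0.99, SE 0.22, limma adjusted p = 0.0105). Odc1, of polyamine synthesis, rose by 1.43 (SE 0.20) and Cad, of pyrimidine synthesis, by 1.15 (SE 0.24). The 3 that fell were Mxd1 (-1.66, SE 0.15), Mxi1 (-0.43) and Max (-0.36), genes of partners of the Myc network rather than targets.

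**Figure D5:**
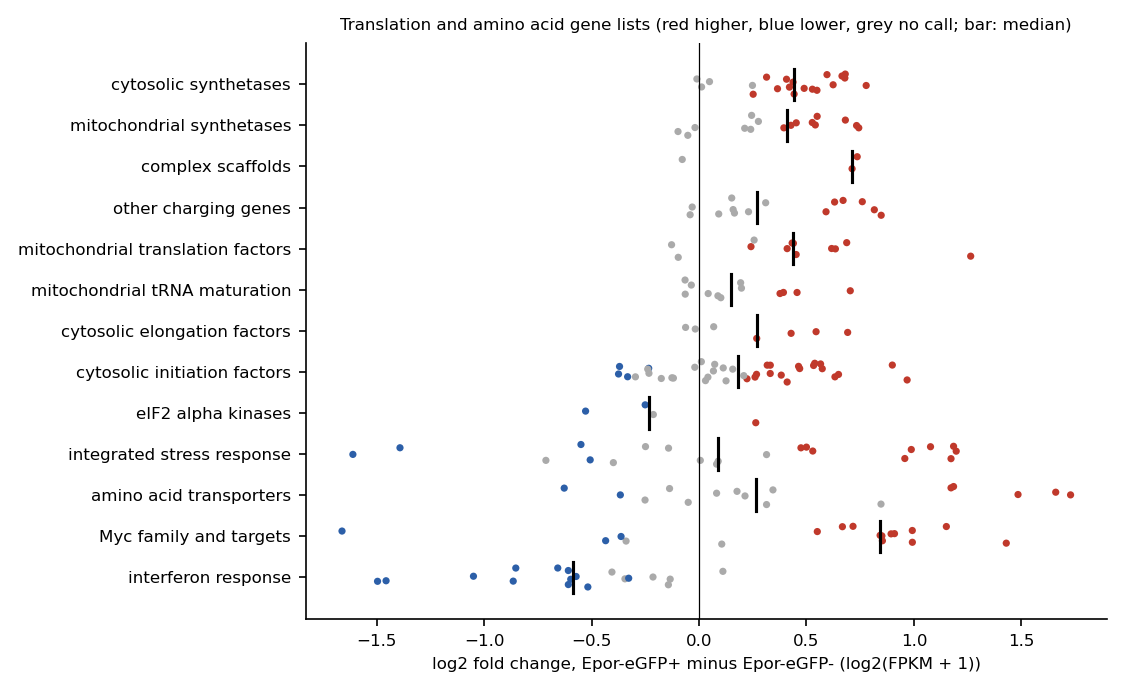
Log2 fold change of each tested gene in 13 lists of translation, charging, stress response, transport, Myc and interferon genes, with red for higher, blue for lower, grey for no call and a black bar for the median. The synthetase lists hold no blue point and have medians of 0.44 and 0.41, while the interferon list holds 12 blue and 0 red points.

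All 36 members are protein-coding genes in GENCODE M21 on GRCm38. Eprs (chromosome 1, 185363044 to 185428360) and Iars2 (chromosome 1, 185284726 to 185329396) are near each other, while Tars2 lies on chromosome 3 (95739976 to 95760206), Yars2 on chromosome 16 (16302965 to 16309640) and Lars2 on chromosome 9 (123366927 to 123462666). Each gene has 1 value for all its isoforms.

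Genes that share sequence or overlap on the genome can exchange reads, and the library kit does not mark strand. In GENCODE M21, 36.6% of the stretches of 50 bases in the longest coding Iars2 transcript also occur in transcripts of Rab3gap2 on the opposite strand, which was at 11.8 to 14.4 against 14.2 to 15.5 FPKM. For Aars the share was 22.4%, with Exosc6 beside it on the same strand, at 13.2 to 16.9 against 16.2 to 21.2 FPKM. For Cars2 it was 17.8% (Naxd), for Farsb 10.1% (Sgpp2), for Iars 8.61% (Gm4849), for Hars 7.53% and for Hars2 4.44% (each other). For the rest it was at most 6.30%. These shares are of 1 transcript per gene, and other isoforms were not searched. Of all exon bases, 24.2% in Iars2 and 15.1% in Aars overlap exons of another gene, the largest parts of all members. By both measures the values of Iars2 and Aars are the least certain in this respect.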

How the data were processed

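RNA of 6 sorted libraries was measured in 2 groups of 3. The values are FPKM as deposited by the authors, in a table of 11489 genes, each reaching at least 1.00 FPKM in some library. Cufflinks 2.2.1, TopHat2 2.1.0, Trimmomatic 0.35, bcl2fastq 2.19.1.403 and the build mm10 are named, without roles, per the submitters' processing notes. The sources used here do not give the annotation or any scaling between libraries. Columns carry a group and a number, 0 to 2, but sample labels run from 1 to 3, so columns were matched to groups only, and 0 columns were left out.

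The 10964 genes whose mean reached 1 FPKM were fitted with limma 3.58.1 in R 4.3.3 on log2(FPKM + 1), group as the only term, eBayes with trend, two-sided, with Benjamini-Hochberg adjustment over all tested genes and a threshold of 0.05. Fold changes, positive where Epor-eGFP+ was higher, are on that scale, which understates changes of low genes. The fit was tested on simulated data, in which each gene varied independently in each library, unlike the real libraries. Same-numbered libraries deviated together from their group means (correlations 0.25, 0.38 and 0.35 for numbers 0, 1 and 2, across genes), a pairing read from the data and not from labels. A fit that adds the number as a replicate block was run as an alternative.

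The members and lists were chosen with earlier results of these data known. Library values are given for the called members of largest fold change (6 cytosolic, 4 mitochondrial) and the 3 of highest mean, and up to 4 called genes of other lists are named by size. Other genes named were chosen after their values were seen. One gene that this rule names is not reported here. Positions are GENCODE M21 and RefSeq on GRCm38, the assembly of mm10. All 36 members were placed in GENCODE.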

Additional observations from a re-analysis of the deposited data

How the results depend on the processing

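Over 16 alternatives (other pseudocounts, filters, scalings and moderation, the replicate block, each library left out, and, chosen after seeing the data, both libraries numbered 2 left out) no member was called lower. Of the 25 members called higher, 20 kept that call in every alternative that tested them, 11 cytosolic and 9 mitochondrial, Ears2 among the latter. With each library left out in turn, cytosolic members higher ran from 11 to 17 and mitochondrial from 9 to 11, with 0 lower in each class. Of all tested genes, 1611 to 2428 were higher and 2060 to 2700 lower, against 2489 and 2883 with all libraries, the lowest counts being those without Epor-eGFP+ library 0. With the replicate block 17 cytosolic and 10 mitochondrial members were higher, Vars and Cars2 being gained and no member lost, and 3066 and 3335 of all genes were higher and lower. With a filter at a mean of 5 FPKM, 7 of 10 mitochondrial members tested were higher. The sign turned only in 5 members without a call. Sars was at 0.0870 with a common total, 0.0498 with a common upper quartile, 0.0498 with quantile normalization, 0.0333 without both libraries numbered 2 and -0.0417 to 0.0315 with each library left out. Hars2 was at 0.0701 with a common total, 0.0360 with a common upper quartile, 0.0733 without both and -0.0561 to 0.0290 with each left out. Wars was at -0.0336 to 0.0668 with each left out. Lars2 was at 0.0010 with a common total and at -0.320 to 0.0863 with each left out, and Wars2 at 0.0136 with a common total. A common total moved the median of all genes by 0.09. The cause of these changes was not tested, and read depth is unknown.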
